A study of Mus musculus with 6 samples.

Results

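The regions described are 3 long segments of the mouse genome, on chromosome 14 from 60 to 90 Mb (proximal segment), on chromosome 14 from 95 to 125 Mb (distal segment) and on chromosome 17 from 70 to 85 Mb. They were selected on measured values, namely the input (Cy3) signal, because the input DNA of both knockout ES cell cultures differed there from that of wild-type (WT) cells. Their members are the non-control array probes that the annotation of the Dnmt1-KO scanner files places inside these limits, 8993 of 474380 probes in all, or 1.90%. The proximal segment holds 4564 probes, the distal segment 2082 and the segment of chromosome 17 2347. All of them sit on array 2 of the promoter set, so each genotype contributed 1 array to every value of the segments. Values over all probes, bins, genes or windows of the genome pool array 1 (237195 probes) and array 2 (237185 probes). Because input differences from WT chose the segments, these differences and every other measure of the same comparisons are descriptions, without a test.

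Rybp was mapped on promoter arrays after chromatin immunoprecipitation. The mouse embryonic stem (ES) cells were of 3 genotypes, wild type, Eed constitutive knockout (Eed-KO) and Dnmt1 constitutive knockout (Dnmt1-KO). Input DNA was labelled with Cy3 and DNA precipitated with an anti-Rybp antibody (IP) with Cy5, after T7 RNA polymerase amplification of both. The cultures were kept either on irradiated mouse embryonic fibroblasts or on gelatin, and the labels do not say which culture had feeders, which strain or clone each line came from, or how the alleles were made. No genotype has a replicate array, so p-values are not given and the small number of arrays limits the precision.

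Rybp belongs to the variant Polycomb complexes that ubiquitylate histone H2A. Eed is a core subunit of the other Polycomb complex, which methylates histone H3, and Dnmt1 copies DNA methylation onto newly made strands. Input is sheared chromatin that was not precipitated. Its signal at a probe follows the amount of that DNA in the preparation and how well the stretch is amplified and hybridised, and division of the IP by the input is meant to remove both. In a bulk culture, a segment carried by fewer cells and less of it per cell cannot be told apart.

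Probes of 6 promoter windows are shown because they give the input of single members at different base compositions. They are printed as in the scanner files, whose strand is not stated, with CG dinucleotides in capitals. For Pcdh17, Obi1 and Cyp1b1 they are the probes with the highest and the lowest WT ratio in the promoter's window of 6 probes, and these windows have the highest WT level of their segment. For Rubcnl, Slitrk6 and Fam98a, whose windows have the largest mean input difference over both knockouts in their segment, they are the probe with the brightest WT input.
Pcdh17 upper, chr14:83254444-83254495: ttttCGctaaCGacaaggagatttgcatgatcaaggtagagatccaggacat
Pcdh17 lower, chr14:83254623-83254667: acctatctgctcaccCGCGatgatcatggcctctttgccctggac
Rubcnl, chr14:73750560-73750604: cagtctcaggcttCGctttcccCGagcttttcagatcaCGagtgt
Obi1 upper, chr14:103408589-103408646: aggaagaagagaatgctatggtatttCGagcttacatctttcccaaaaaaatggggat
Obi1 lower, chr14:103408025-103408069: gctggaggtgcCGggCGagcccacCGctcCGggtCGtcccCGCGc
Slitrk6, chr14:109638147-109638206: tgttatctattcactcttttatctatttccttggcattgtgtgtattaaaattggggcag
Cyp1b1 upper, chr17:79622757-79622816: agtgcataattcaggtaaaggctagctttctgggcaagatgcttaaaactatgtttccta
Cyp1b1 lower, chr17:79622497-79622541: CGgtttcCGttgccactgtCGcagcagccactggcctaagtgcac
Fam98a, chr17:75457143-75457187: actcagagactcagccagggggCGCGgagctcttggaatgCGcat
Coordinates are those of the Dnmt1-KO scanner files. The sources used here do not give their genome build, which is not GRCm38.p6. Of 280 member probes found in RefSeq promoters of that build, 0 had the same position, and the offset was 864818 to 1266202 bp on chromosome 14 (189 probes) and 91674 to 95143 bp on chromosome 17 (91 probes).

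Input levels are log2 processed signals relative to the array median over non-control probes. At the upper Pcdh17 probe, of 42.3% GC, the input level was -0.85 in WT, 0.13 in Eed-KO and 2.85 in Dnmt1-KO. At the lower one, of 57.8% GC and 2 CG dinucleotides like the upper, it was 0.96 in WT, 1.56 in Eed-KO and 4.13 in Dnmt1-KO. Both knockouts were thus above WT at both probes, and Eed-KO by 0.98 and 0.60. The upper Obi1 probe (37.9% GC) had 0.65, 0.052 and 0.17 in WT, Eed-KO and Dnmt1-KO, whereas the lower one (82.2% GC, 7 CG dinucleotides) had 3.35, 3.65 and 5.40. The Eed-KO difference from WT was -0.59 at the upper probe and 0.29 at the lower one. The upper Cyp1b1 probe (38.3% GC) had -0.16, 0.37 and 4.27, and the lower one (62.2% GC) 1.41, 1.28 and 3.37. The Slitrk6 probe (33.3% GC, with 0 CG dinucleotides) had 1.22 in WT, 0.65 in Eed-KO and -1.65 in Dnmt1-KO, so WT was highest there and lowest at both Pcdh17 probes. The Rubcnl probe (53.3% GC) had -0.37, -0.22 and 5.23, and the Fam98a probe (62.2% GC) 2.13, 2.57 and 4.81, with WT lowest at both. Between the probes of a pair, Eed-KO was further from WT at the AT-richer probe of Pcdh17, Obi1 and Cyp1b1. Dnmt1-KO was further from WT at the AT-richer probe of Pcdh17 (3.70 against 3.17) and Cyp1b1 (4.43 against 1.96). At Obi1 it was further from WT at the GC-richer probe (2.04 against -0.47).

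The input of Eed-KO was displaced from WT upwards in the proximal segment and on chromosome 17 and downwards in the distal segment. After removal of outlier spots the median difference over 4563 proximal probes was 0.70 (quartiles 0.44 and 0.93), or 1.62-fold, and 96.6% of these probes were above 0. Over 2082 distal probes the median was -0.42 (quartiles -0.63 and -0.11), or 0.749-fold, with 17.6% above 0. Over 2345 probes of chromosome 17 it was 0.63 (quartiles 0.20 and 0.94), or 1.55-fold, with 85.8% above 0. Order-statistic 95% intervals of these medians, which cover scatter over probes and no variation between arrays, were 0.68 to 0.71, -0.43 to -0.39 and 0.60 to 0.66. The rest of chromosome 14 had a median of -0.016 over 11123 probes, the rest of chromosome 17 -0.026 over 19323 probes, and all 474047 filtered probes 0.015. The size depended on the background correction: with normexp correction and its offset of 50, the medians were 0.24, -0.18 and 0.21.

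For Dnmt1-KO the same values were spread much more widely and moved with base composition. The median input difference from WT was 0.74 in the proximal segment, -0.998 in the distal segment and 0.31 on chromosome 17, against 0.021 over all probes. The rest of chromosome 17 stood at 0.45, above its segment. On array 2 the Dnmt1-KO difference had a correlation of 0.67 with the GC content of the probe over all probes, whereas that of Eed-KO had -0.0019. These are correlations over probes of single arrays, which share 1 hybridisation. With a lowess trend on probe GC removed, the Dnmt1-KO medians were 0.67, -0.46 and 0.54, and those of Eed-KO 0.71, -0.41 and 0.63. The rest of chromosome 17 was then at 0.065. The removal was by probe and left a dependence on base composition over 1 Mb bins. Over the 2051 bins outside the segments, the adjusted Dnmt1-KO difference still had a correlation of 0.71 with the GC content of the bin. Over the bins of the proximal, distal and chromosome 17 segments it was 0.61, -0.052 and 0.21. With normexp correction in place of the GC step the chromosome 17 value of Dnmt1-KO changed sign, from 0.31 to -0.020. The Dnmt1-KO arrays came from another scanner model (G2505C, against G2505B) and software version (10.1.1.1, against 9.5.3.1), so for that genotype the scanner and the genotype cannot be told apart.

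The 2 knockouts were also set against each other. With the GC trend removed, the median input difference of Dnmt1-KO minus Eed-KO was -0.0081 in the proximal segment (95% interval -0.049 to 0.033), -0.095 in the distal segment (-0.17 to -0.020) and -0.033 on chromosome 17 (-0.096 to 0.039). With the trend kept it was 0.048 (-0.035 to 0.13), -0.56 (-0.68 to -0.43) and -0.35 (-0.44 to -0.25), so in the distal segment and on chromosome 17 Dnmt1-KO was the lower. The segments were picked for a difference of both knockouts from WT, which favours like values in the knockouts, so nothing is read from their nearness.

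**Figure D1:**
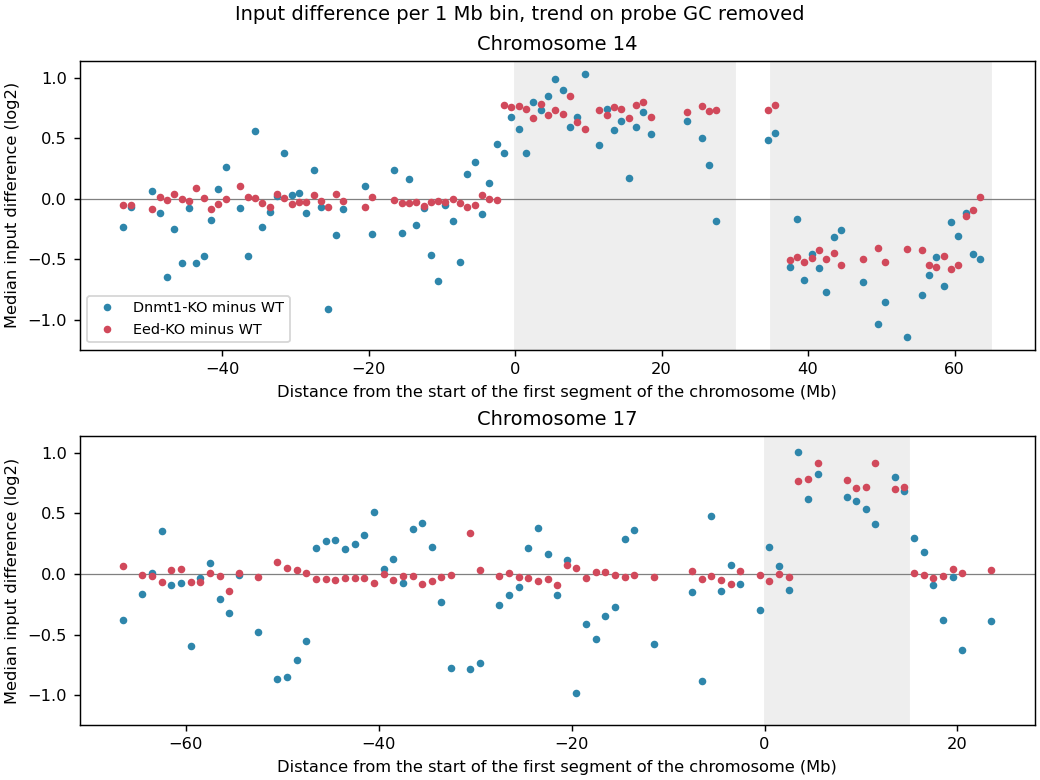
Median input difference from WT (log2, trend on probe GC removed) in 1 Mb bins of at least 20 probes along chromosomes 14 and 17, against distance from the first segment's start in Mb. Grey areas are the segment limits, red points Eed-KO and blue points Dnmt1-KO. Red points lie on 2 flat levels above and 1 below the zero line with abrupt steps, and blue points scatter around them.

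In bins of 1 Mb, all 22 proximal bins were higher in Eed-KO than in WT by at least 0.2, a limit that 5.22% of 2107 bins over the genome passed upwards (4.70% with the GC trend removed). Downwards, 18 of 22 distal bins passed, against 0.949% of all bins (0.997% with the GC trend removed), and 1 distal bin passed upwards. On chromosome 17, 9 of 12 bins passed upwards and 0 downwards. Proximal bins ran from 0.55 to 0.85 with an SD of 0.068, against an SD of 0.085 over the 2051 bins outside the segments. The bins outside include displaced ones, such as that at 59 Mb on chromosome 14 (0.74), and their quartiles were -0.021 and 0.058. Distal bins ran from -0.58 to 0.81 (SD 0.31) and those of chromosome 17 from -0.076 to 0.92 (SD 0.37), since both hold bins from either side of a step. In Dnmt1-KO, 14 of 22 proximal bins passed upwards (26.7% of all bins did) and 22 of 22 distal bins downwards (59.2% of all bins did). On chromosome 17, 6 of 12 Dnmt1-KO bins passed upwards and 4 downwards. With the GC trend removed the Dnmt1-KO counts were 20 of 22, 18 of 22 and 10 of 12, against 18.6% of bins upwards and 36.0% downwards. Each knockout was set against the same WT array.

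The chosen limits do not coincide with the edges of the displaced stretches. Just outside the proximal segment, the bin at 59 Mb had an Eed-KO difference of 0.74, and just inside, the bin at 60 Mb had 0.78. At the start of the distal segment the bin at 95 Mb was at 0.81 and the bin at 94 Mb, outside it, at 0.74, both on the proximal side of the step. At its end the bins at 121, 122 and 123 Mb had -0.15, -0.090 and 0.015. On chromosome 17 the bin at 69 Mb had -0.025 and those at 70, 71 and 72 Mb inside the limits had -0.076, -0.00058 and -0.0088. At the other end the bin at 84 Mb had 0.70 and the bin at 85 Mb, outside, 0.034.

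Runs of neighbouring bins past 0.3 in Eed-KO, a limit chosen after the values were seen, give the extent of the stretches. On chromosome 14 a higher run went from 58 to 96 Mb (26 bins, 4940 probes, median 0.70), and a lower run from 97 to 121 Mb (18 bins, 1527 probes, median -0.50). On chromosome 17 a higher run went from 73 to 85 Mb (9 bins, 1844 probes, median 0.75). On either side of it the medians were -0.020 (40 to 73 Mb) and 0.010 (85 to 94 Mb).

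The Eed-KO steps fell between named neighbours. The probes of Fgf9, a growth factor gene whose last probe ends at 57029506 on chromosome 14, had a median Eed-KO input difference of -0.016, and those of the next gene measured, 1700129C05Rik with its first probe at 58095544, had 0.79. Klhl1, which encodes an actin-binding protein of neurons and whose last probe ends at 95407246, had 0.81, and Dach1, a transcription factor of eye and limb development whose first probe starts at 97049609, had -0.43. The lower run closed within 58888 bp, between the probes of Gpr183 (a chemoattractant receptor of immune cells, -0.54) and Timm8a2 (-0.083). On chromosome 17 Capn13, a calpain protease, had 0.045 and Galnt14, a glycosyltransferase, had 0.80 across a gap of 303013 bp between their probes. The higher run ended between Camkmt (0.93) and Six3, a forebrain and eye transcription factor (0.036). With the GC trend removed, Dnmt1-KO went the other way from Fgf9 (44 probes) to 1700129C05Rik (14 probes), 0.45 to -0.11. The bins at 57, 58 and 59 Mb had 0.45, 0.38 and 0.68, without such a reversal of sign. Few probes carry these gene medians, and the adjusted Dnmt1-KO difference had an SD of 1.34 over proximal probes. From Camkmt (23 probes) to Six3 (44 probes) Dnmt1-KO showed no step (0.44 to 0.44). Its medians were 0.55 and -0.17 at Klhl1 and Dach1, -0.61 and -0.12 at Gpr183 and Timm8a2, and 0.22 and 1.25 at Capn13 and Galnt14. Among genes with at least 6 probes, all 143 of the proximal segment had an Eed-KO median of at least 0.3, against 2.52% of 16540 such genes over the arrays. In the distal segment 44 of 57 were at or below -0.3 (0.544% over the arrays), 1 was above 0.3 and 12 between, and on chromosome 17 54 of 70 were above 0.3 and 16 between.

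Within each array, set against that array's own probes of the same GC content, the WT array departed most from its own median. The segments were picked because the input of both knockouts differed there from WT, which favours WT as the genotype apart. The levels are therefore descriptions, and nothing is read from which array departed most. In WT the input level of the proximal segment was -0.72 (95% interval -0.75 to -0.69), or 0.609 of the array's median, with 80.8% of probes below 0. In Eed-KO the level was 0.014 and in Dnmt1-KO -0.018, with 49.0% and 50.5% of probes below 0. The distal segment stood at 0.42 (1.34-fold) in WT, 0.021 in Eed-KO and -0.097 in Dnmt1-KO. The segment of chromosome 17 stood at -0.58 in WT, 0.040 in Eed-KO and 0.0086 in Dnmt1-KO. The distal level of Dnmt1-KO had an interval of -0.19 to -0.017, below 0. With the GC trend kept, Dnmt1-KO stood at 0.032, -0.58 and -0.38 in the 3 segments, against -0.74, 0.39 and -0.63 in WT and 0.012, -0.025 and 0.0047 in Eed-KO, so in the distal segment Dnmt1-KO then departed further than WT. Over the runs in place of the chosen limits, WT was at -0.73 (58 to 96 Mb), 0.53 (97 to 121 Mb) and -0.74 (chromosome 17, 73 to 85 Mb), against 0.011 to 0.048 in Eed-KO and -0.090 to -0.021 in Dnmt1-KO. For scale, the X chromosome, whose copy number in these lines is not given, stood at -0.72 in WT, -0.61 in Eed-KO and -0.75 in Dnmt1-KO over 17329 probes. With normexp correction the WT levels of the 3 segments were -0.27, 0.20 and -0.22.

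The bins of the WT array show the same order, under the same choice of segments. All 22 proximal bins and 9 of 12 bins of chromosome 17 were at or below -0.4 in WT, where 8.69% of all bins were, and 12 of 22 distal bins were at or above 0.4, where 0.997% of all bins were. A further distal bin, the one at 95 Mb before the step, was at -1.16 in WT. In Eed-KO 0 of 22 proximal bins, 1 of 22 distal bins and 0 of 12 bins of chromosome 17 were at or below -0.4 (5.36% of all bins), and 0 in any segment were at or above 0.4 (0.759% of all bins). Outside the segments on chromosomes 14 and 17, 4 of 112 WT bins were at or below -0.4. Of the 151 such WT bins outside the segments over the genome, 110 lay on the X chromosome. In Dnmt1-KO 2, 8 and 1 bins of the 3 segments were at or below -0.4, on an array where 25.1% of all bins were (the median distal bin was at -0.35), and 0, 2 and 0 were at or above 0.4 (7.07% of all bins). Whether the WT culture, its DNA preparation or its array accounts for its place was not tested, since 1 WT input hybridisation covers these probes.

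**Figure D2:**
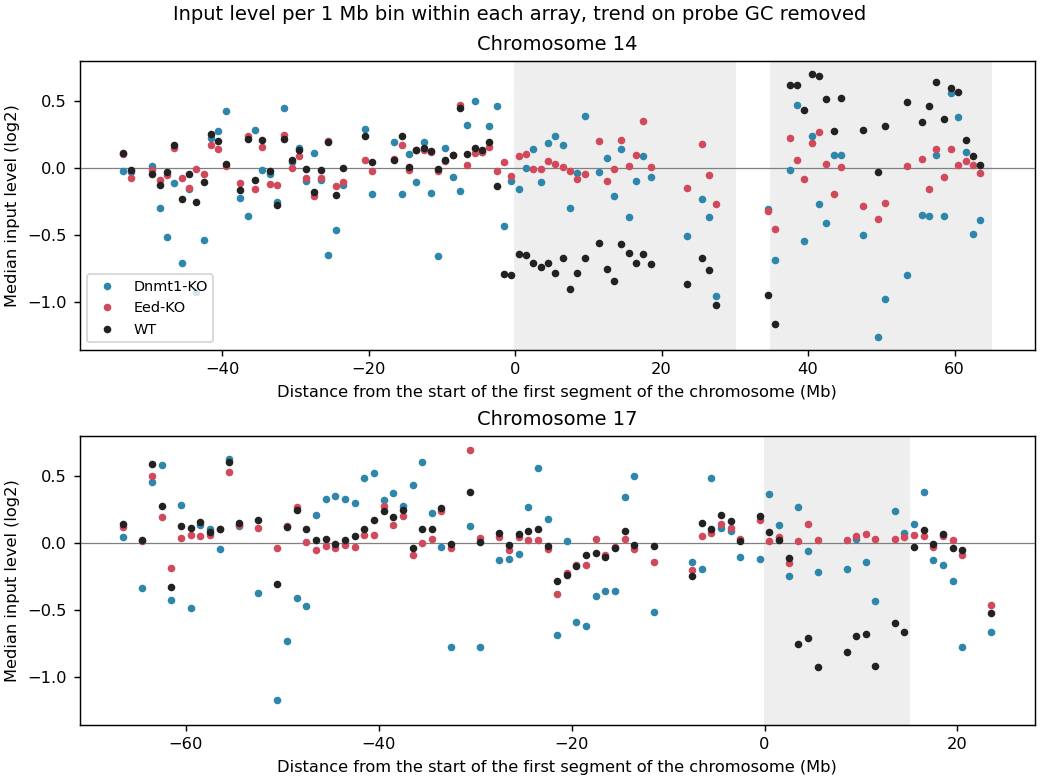
Input level (log2, set against the array's own median with its trend on probe GC removed) in 1 Mb bins along chromosomes 14 and 17 for WT (black), Eed-KO (red) and Dnmt1-KO (blue), against distance from the first segment's start in Mb, with segment limits in grey. Black points leave the red ones in most bins of the grey areas, down to -1.02 in the proximal segment and up to 0.70 in the distal one. Blue points scatter and lie near black ones in some bins, as at 87 Mb (-0.95 against -1.02) and 119 Mb (0.56 against 0.60) on chromosome 14. The distal bin at 95 Mb is at -1.16 in WT.

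The IP channel carried the same displacement, and the ratio carried little of it. The median IP difference of Eed-KO from WT was 0.77 in the proximal segment, -0.44 in the distal segment and 0.66 on chromosome 17. For Dnmt1-KO with the GC trend removed it was 0.75, -0.43 and 0.59. Within the arrays, the GC-adjusted IP level of WT was -0.71, 0.55 and -0.60, that of Eed-KO 0.060, 0.15 and 0.036, and that of Dnmt1-KO 0.087, 0.036 and -0.0049. For the centred IP-over-input ratio, the median differences of Eed-KO were 0.039, -0.0082 and -0.0019, and those of Dnmt1-KO 0.10, 0.012 and 0.0088. Of the genes past 0.3 in input, IP was displaced to the same side in 143 of 143, 45 of 45 and 54 of 54. The matching share among genes past 0.3 over the whole arrays is not given here. Input and IP are channels of the same arrays, so these counts are not read as particular to the segments. With normexp correction the ratio medians of Eed-KO were 0.18, -0.11 and 0.12, and those of Dnmt1-KO 0.27, -0.077 and 0.17. Part of the displacement then stayed in the ratio.

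**Figure D3:**
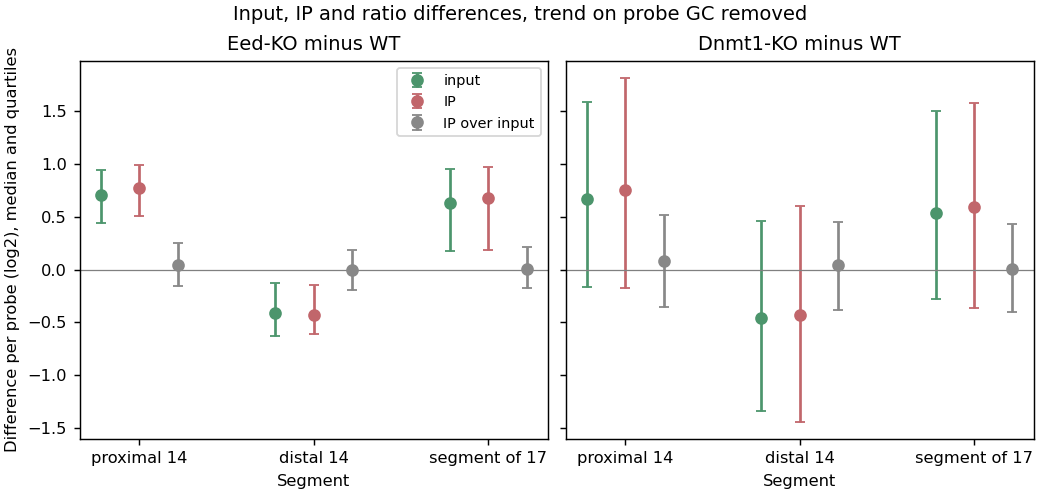
Difference from WT per probe (log2, trend on probe GC removed) in input, IP and the IP-over-input ratio, by segment, for Eed-KO (left) and Dnmt1-KO (right). Points are medians over probes and bars run from the first to the third quartile. Input and IP medians lie together on 1 side of the zero line in each segment and ratio medians lie between -0.00088 and 0.080.

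The displacement depended on the base composition of the probe in a way that the array-wide trend does not describe. In the higher run of chromosome 14 the median Eed-KO input difference was 0.84 over 2307 probes under 40% GC, 0.66 over 1914 probes from 40 to 50% and 0.32 over 719 probes at 50% and over. On chromosome 17 it was 0.85, 0.71 and 0.32. In the lower run it was -0.55 and -0.54 in the first 2 classes and -0.058 at 50% and over. On chromosomes other than 14 and 17 the last 2 classes had -0.016 and 0.15. Those medians pool probes of arrays 1 and 2, whereas all members are on array 2. Over all probes the Eed-KO difference had a correlation with probe GC of 0.22 on array 1 and -0.0019 on array 2. Values less these medians are therefore not a comparison within 1 array. Less the median of the same class on those chromosomes, the difference at GC-rich probes was 0.17 in both higher runs and -0.21 in the lower run, against 0.84, 0.85 and -0.55 at AT-rich probes. For Dnmt1-KO with the GC trend removed, the medians were 0.90, 0.64 and 0.092 in the higher run of chromosome 14, -0.64, -0.70 and 0.027 in the lower run, and 0.87, 0.59 and 0.077 on chromosome 17. The displacement was thus smaller at GC-rich members in each run and each knockout. GC-rich probes were also brighter, with a median WT input level of 0.43 in the higher run of chromosome 14 against -0.98 under 40% GC, and the part of signal level in this was not tested.

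**Figure D4:**
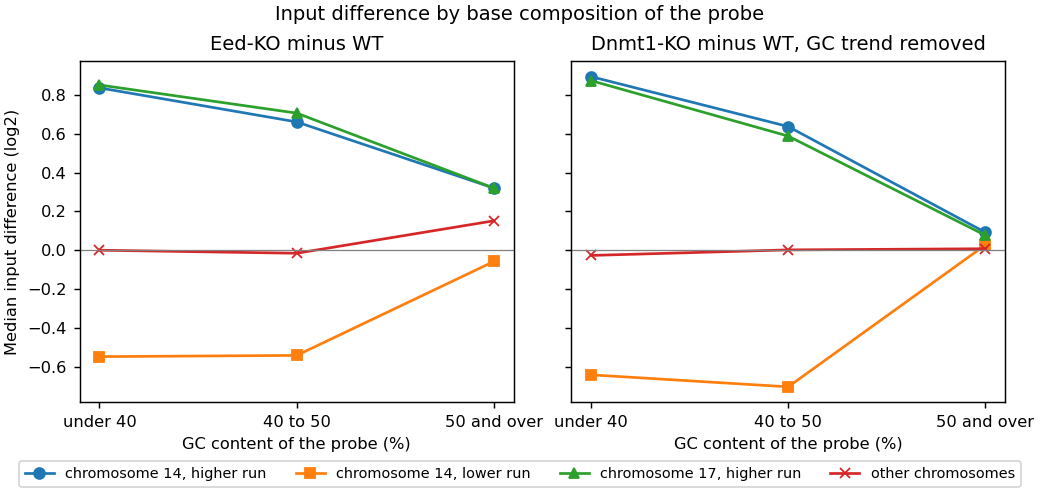
Median input difference from WT (log2) by GC content of the probe (under 40%, 40 to 50%, 50% and over) in the 3 runs and on the other chromosomes, for Eed-KO (left) and Dnmt1-KO with the array-wide GC trend removed (right). In the class of 50% GC and over the 3 runs lie nearer the zero line than in the other classes. The Eed-KO medians of both higher runs are at 0.32 there, and other chromosomes, which pool arrays 1 and 2, at 0.15.

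Rybp signal at promoters was read from the window of 6 neighbouring probes with the highest mean ratio over the genotypes, and windows with a level of 1 or more, a 2-fold excess of IP, were called bound. The segments hold 266 of 16328 such windows. In WT 8 of 140 proximal windows, 9 of 56 distal windows and 1 of 70 windows of chromosome 17 were bound, 18 in all, against 5.15% of windows over the genome. In Eed-KO 10, 11 and 4 were bound, against 5.76%. In Dnmt1-KO 68, 38 and 35 were bound, against 46.1%. With the ratios of each array set to 1 spread, the Dnmt1-KO counts were 11, 7 and 4. With normexp correction the WT counts were 0, 12 and 0. The distal segment had the highest share of bound windows in WT, 16.1%, with a median level of 0.49 against 0.28 in the proximal segment and 0.24 on chromosome 17. Its windows had a median GC content of 47.4% and 3.14 CG dinucleotides per 100 bases, against 46.9% and 2.58 for all promoters. The proximal windows had 46.2% and 2.68, and those of chromosome 17 48.2% and 3.15. The part of base composition in the bound shares was not tested.

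The highest WT levels of the proximal segment were at Pcdh17, a protocadherin of neuronal contacts, Sox7, an endodermal and endothelial transcription factor, and Nefl, the light neurofilament subunit. Levels are given with their SD over the 6 probes of the window. Pcdh17 had 1.30 ± 0.50 in WT, 1.85 ± 0.60 in Eed-KO and 3.14 ± 0.55 in Dnmt1-KO. Sox7 had 1.24 ± 0.43, 1.47 ± 0.49 and 1.69 ± 0.74. Nefl had 1.19 ± 0.49, 1.99 ± 0.63 and 3.55 ± 1.11. WT was lowest and Dnmt1-KO highest at all 3, and the ranges of 1 SD of WT and Eed-KO overlapped at each. The input level at Nefl was -0.52 in WT, -0.11 in Eed-KO and 2.03 in Dnmt1-KO, so its denominator was displaced as well. Gtf2f2, a general transcription factor subunit, was bound in WT (1.15) and just under the limit in Eed-KO (0.97), and is the 1 segment window that was bound in WT alone of that pair.

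In the distal segment the highest WT level was at Obi1, a ubiquitin ligase of replication origins, with 1.66 ± 0.59 in WT, 1.19 ± 0.69 in Eed-KO and 1.76 ± 0.52 in Dnmt1-KO. The window of Gpr180, a membrane protein, had 1.45, 1.10 and 2.63, and that of Tgds, a sugar-nucleotide dehydratase whose window overlaps it, 1.32, 1.02 and 1.73. Eed-KO was the lowest genotype at these 3, and its input differed from WT there by -0.30, -0.28 and -0.86. Slitrk1, a synaptic adhesion protein, went the other way, with 0.82 ± 0.17 in WT, 1.39 ± 0.34 in Eed-KO and 1.21 ± 0.27 in Dnmt1-KO. Slitrk6, of the same family, had -0.038 in WT and 0.033 in Eed-KO and was not bound in any genotype.

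On chromosome 17 Cyp1b1, a cytochrome P450 of steroid and xenobiotic metabolism, was the 1 window bound in WT, at 1.18 ± 0.63, with 1.90 ± 0.65 in Eed-KO and 2.92 ± 0.53 in Dnmt1-KO. Srd5a2, a steroid reductase, had 0.88, 1.04 and 1.22, and Cdc42ep3, an effector of a small GTPase, 0.87, 0.84 and 2.17. Alk, a receptor tyrosine kinase that lies before the step, had 0.75, 0.79 and 2.83, and Srsf7, a splicing factor, 0.33, 0.13 and 2.45.

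Among the 26 segment windows bound in WT or Eed-KO, 5 were higher in Eed-KO by at least 0.5, against 4.40% of 1136 such windows over the genome, and 0 were lower by as much, against 2.02%. They are Nefl (0.80 ± 0.13, SE over 6 probes), Cyp1b1 (0.71 ± 0.10), Slitrk1 (0.57 ± 0.11), Pcdh17 (0.55 ± 0.10) and Ebf2, a neuronal and fat-cell transcription factor (0.53 ± 0.18). The input difference of these windows was 0.40, 0.50, -0.66, 0.66 and 0.63, so 4 of them lay where Eed-KO input was higher than WT and Slitrk1 where it was lower. Of the 26 windows 8 were bound in Eed-KO and not in WT, Slitrk1 among them, and 1 in WT and not in Eed-KO, so the choice of bound windows itself favours higher over lower. In Dnmt1-KO, 122 of 141 windows bound in either were higher by at least 0.5, while 93.7% of 7546 such windows over the genome were. Of the 141, 123 were bound in Dnmt1-KO and not in WT, so being high in Dnmt1-KO put them in the set and their direction is no result.

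**Figure D5:**
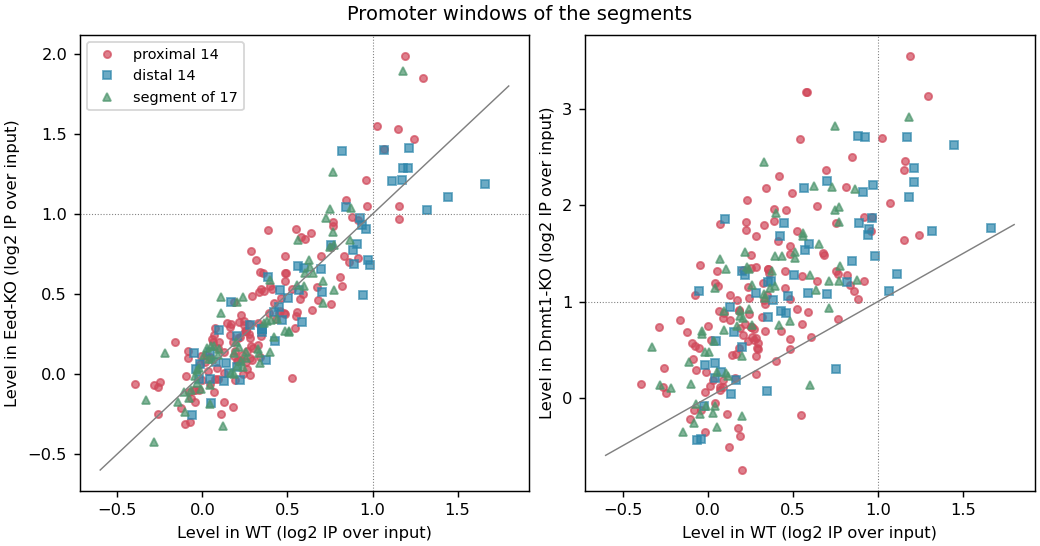
Level (log2 IP over input, mean of 6 probes) of the 266 promoter windows in WT on the horizontal axis and in Eed-KO (left) or Dnmt1-KO (right) on the vertical axis, by segment. The grey line marks equal levels and the dotted lines the bound level of 1. Eed-KO points lie along the line and most Dnmt1-KO points above it.

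Gene lists by role, chosen with earlier results of these arrays known, split the windows further. Of 19 genes listed as developmental transcription factors, 14 had a window in the segments, in 13 windows. Of these 4 were bound in WT, 5 in Eed-KO and 11 in Dnmt1-KO (5.15%, 5.76% and 46.1% of all windows), with a median WT level of 0.95 against 0.27 for all promoters. The list also holds Mycbp2, which encodes a ubiquitin ligase (0.95, 0.49 and 1.75). The windows include Gata4, a heart and endoderm regulator (0.96, 1.22 and 1.74 in WT, Eed-KO and Dnmt1-KO), Sox21 of the neural tube (1.21, 1.29 and 2.25) and the window shared by Zic2 and Zic5 (1.21, 1.41 and 2.39). The last lies beyond the lower run, and its input level was -0.077 in WT and -0.057 in Eed-KO. Of 22 neuronal genes 20 had a window, and 6, 8 and 16 were bound, with a median WT level of 0.79. Nefm, the medium neurofilament subunit, had 1.15, 1.53 and 2.36, Pcdh8 1.07, 1.40 and 2.03, and Kctd12, an auxiliary subunit of GABA receptors, 1.18, 1.29 and 2.09.

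Of 24 signalling, matrix and transport genes 23 had a window, and 1, 2 and 15 were bound, with a median WT level of 0.55. Loxl2, a matrix cross-linking oxidase, had 0.58, 0.47 and 3.18, and Ednrb, the endothelin receptor of neural crest, 0.91, 0.81 and 2.14. Of 24 cell cycle, chromatin and general genes 21 had a window, and 0, 0 and 14 were bound, with a median WT level of 0.22. The shares over all windows that these counts stand against are those given for the first list. Rb1, the retinoblastoma gene, had 0.33, 0.18 and 1.19, and Smchd1, a chromatin protein of X inactivation that lies before the step on chromosome 17, -0.14, -0.17 and -0.36. The median Eed-KO ratio difference was 0.15 for the neuronal list and -0.13 for the general list, and their median input differences were 0.57 and 0.43. The difference between the lists was not tested.

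The depth of these probes differed by genotype. Of the 4564, 2082 and 2347 members, input was not well above background at 10, 1 and 8 in WT, at 3, 2 and 2 in Eed-KO and at 525, 395 and 339 in Dnmt1-KO, and 0 were saturated in input. Over array 2 the median input signal above background was 47.1 in WT, 40.9 in Eed-KO and 112.0 in Dnmt1-KO, and 99.9%, 99.9% and 85.8% of probes were well above background, on different scanners for Dnmt1-KO. The SD of log2 input over the probes was 1.05, 1.04 and 2.44.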

How the data were processed

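The members and gene lists were chosen with earlier results of these data known. Per the file headers, the deposited scanner intensities are background-subtracted, dye-normalised processed signals from Agilent Feature Extraction, version 9.5.3.1 for WT and Eed-KO and 10.1.1.1 for Dnmt1-KO, whereas the submitters' processing notes give 9.5.3.1. The authors' deposited table of log10 ratios (Cy5 over Cy3) served as an alternative.

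Each channel was put on the log2 scale and centred on the array median over non-control probes, and the ratio was IP minus input, centred again. Probes flagged as non-uniform or as population outliers on at least 1 of the 3 arrays were left out. The GC trend was a lowess fit on probe GC content (span 0.3, 3 passes). For differences between genotypes it was fitted to the difference per probe, within each array design. For levels and ratios of a single genotype it was fitted on that array. Bins of 1 Mb needed 20 probes. Windows were runs of 6 probes within 3 kb. Intervals of medians are order-statistic 95% intervals. Genes took their symbols through RefSeq accessions (275 of 285 matched), and 271 members named no gene. The GC correction and the choice of windows were tested on simulated data. The simulated differences had a linear slope on probe GC and shifts equal at all GC contents. They held no regional GC trend and no shift that changes with probe GC, so they cannot tell how the correction does with either.

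Named promoters are, per segment, the 3 with the highest WT level, those with the largest ratio difference in each knockout whose 6 probes agree in sign, those with the largest input difference, and members of 4 lists. Not every one is named. Alternatives were normexp (limma 3.58.1, R 4.3.3, offset 50), other centring, quantile normalisation, all spots kept, bright input only, moved limits, the value table, 1 spread per array, other bins, limits and windows. Regional GC, limits at the steps, and the alternatives for levels within an array were added after seeing the data. Python 3.11.15, numpy 2.4.6, pandas 2.3.3 and statsmodels 0.14.6 were used.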

Additional observations from a re-analysis of the deposited data

How the results depend on the processing

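Values are given for the proximal, distal and chromosome 17 segments in that order. A median counts as moved when it leaves its 95% interval, and a count when it changes by over 1.5 times. Keeping outlier spots moved no difference and no count of bins, and the authors' value table moved no ratio median. The 3 Eed-KO input and IP differences kept their direction under every alternative run. With normexp background correction, the median input differences were 0.24, -0.18 and 0.21 in Eed-KO and 0.24, -0.59 and -0.020 in Dnmt1-KO. For IP the medians were 0.45, -0.32 and 0.34 in Eed-KO and 0.53, -0.73 and 0.063 in Dnmt1-KO. For the ratio they were 0.18, -0.11 and 0.12 in Eed-KO and 0.27, -0.077 and 0.17 in Dnmt1-KO. Dnmt1-KO bins counted 8, 0 and 3 upwards and 5, 18 and 4 downwards. The bound windows were 0, 12 and 0 in WT. The input levels were -0.27, 0.20 and -0.22 in WT. With centring on chromosomes other than 12, 14, 17 and X, the median input differences were 0.73, -0.38 and 0.66 in Eed-KO. Those of IP were 0.80, -0.41 and 0.69 in Eed-KO. With the trend on probe GC content removed, the median input differences were 0.67, -0.46 and 0.54 in Dnmt1-KO. In IP they were 0.75, -0.43 and 0.59 in Dnmt1-KO. The ratio medians were 0.080, 0.047 and 0.0091 in Dnmt1-KO. In bins, Dnmt1-KO had 20, 1 and 10 upwards and 0, 18 and 0 downwards. The bound windows were 8, 12 and 2 in Eed-KO and 46, 28 and 19 in Dnmt1-KO. With quantile normalisation, the median input differences were 1.05, -0.67 and 0.92 in Eed-KO and 0.96, -0.86 and 0.68 in Dnmt1-KO. The IP medians were 1.17, -0.71 and 0.98 in Eed-KO and 1.05, -0.999 and 0.75 in Dnmt1-KO. For the ratio they were 0.075, -0.038 and 0.014 in Eed-KO and 0.068, -0.14 and 0.021 in Dnmt1-KO. Counts of Dnmt1-KO bins were 22, 1 and 9 upwards and 0, 21 and 0 downwards. Over probes well above background in input on every array, the median input differences were 0.67, -0.42 and 0.60 in Eed-KO and 1.01, -0.40 and 0.66 in Dnmt1-KO. For IP the medians were 0.74, -0.42 and 0.63 in Eed-KO and 1.14, -0.43 and 0.59 in Dnmt1-KO. The ratio medians were 0.12, 0.050 and 0.026 in Dnmt1-KO. Dnmt1-KO bins counted 19, 3 and 9 upwards and 2, 13 and 0 downwards. With segment limits moved inward by 2 Mb, the median input differences were 0.69, -0.44 and 0.74 in Eed-KO and 0.81, -0.99 and 0.20 in Dnmt1-KO. Those of IP were 0.77, -0.46 and 0.78 in Eed-KO and 0.93, -1.06 and 0.087 in Dnmt1-KO. The bins past the limit upwards were 20, 0 and 7 in Eed-KO. The bins past the limit downwards were 3, 20 and 2 in Dnmt1-KO. The input levels were -0.72, 0.46 and -0.73 in WT and -0.0063, -0.083 and -0.066 in Dnmt1-KO. With the ratios of each array set to 1 spread, the median ratio differences were 0.031, -0.027 and -0.0023 in Eed-KO and 0.042, -0.054 and 0.0025 in Dnmt1-KO. The bound windows were 8, 9 and 2 in Eed-KO and 11, 7 and 4 in Dnmt1-KO. With bins of 2 Mb, the bins past the limit upwards were 13, 0 and 6 in Eed-KO and 8, 0 and 4 in Dnmt1-KO. The bins past the limit downwards were 2, 14 and 1 in Dnmt1-KO. At a limit of 0.3, the bins past the limit downwards were 2, 20 and 2 in Dnmt1-KO. At a bound level of 1.5-fold, the bound windows were 29, 25 and 17 in WT and 33, 24 and 15 in Eed-KO. At a bound level of 3-fold, the bound windows were 0, 1 and 0 in WT, 2, 0 and 1 in Eed-KO, and 33, 21 and 13 in Dnmt1-KO. With a further trend on the GC content of the bin removed, the median input differences were 0.63, -0.33 and 0.61 in Dnmt1-KO. In bins, Dnmt1-KO had 20, 1 and 11 upwards and 0, 15 and 0 downwards. With limits at the steps and the trend on probe GC removed, the median input differences were 0.71, -0.50 and 0.76 in Eed-KO and 0.66, -0.53 and 0.66 in Dnmt1-KO. With the trend on probe GC kept, the input levels were -0.74, 0.39 and -0.63 in WT, 0.012, -0.025 and 0.0047 in Eed-KO, and 0.032, -0.58 and -0.38 in Dnmt1-KO. A limit of 0.1 and runs of 4 probes moved no count. Array designs alone could not be compared, since all members are on array 2. No paired analysis was possible because each genotype has 1 array of each design and the labels carry no replicate numbers that pair them. Causes of these changes were not tested beyond what each alternative does to the values. One input hybridisation per genotype limits every value of the segments, and Dnmt1-KO has more dim probes than the others.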
